A study of Mus musculus with 30 samples.

Results

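Lypd1 and Ric3 are 2 of the 48795 genes counted in these libraries, and both code for proteins that act on nicotinic acetylcholine receptors. They were chosen by name, with knowledge that both levels were several-fold higher in older brain endothelial cells, so their levels by age are a description and carry no test. Both passed the filter on low counts, which kept 16844 genes, and each was counted in all 30 libraries (at least 149 reads for Lypd1 and 116 for Ric3).

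Nicotinic receptors are ion channels built from several subunits that open when acetylcholine binds. Lypd1, also called Lynx2, belongs to the Ly6/uPAR family, whose members carry a small fold with finger-like loops and are often tethered to the membrane by a lipid anchor. It binds nicotinic receptors and dampens their response, and it is best known from neurons. Ric3 is a chaperone of the endoplasmic reticulum that assists the folding and assembly of nicotinic receptors, the homomeric alpha-7 type in particular, and of the related 5-HT3 serotonin receptor.

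The libraries came from primary endothelial cells, the cells that line blood vessels, taken from the brains of WT mice that had received no treatment. There were 5 groups by age, 2, 6, 12, 18 and 24 months, each with 3 males and 3 females, and the study's design regressed expression on age with correction for sex. The design text calls the 6 samples of an age biological replicates. The isolation of the cells, and any pooling of mice within a library, are not described in those texts, and p-values measure the spread between these libraries.

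The endothelial markers (10 genes, among them Pecam1, Cdh5 and Cldn5) summed to between 15965 and 21496 CPM per library. CPM is the read count of a gene scaled to a common library size, with the total of gene reads adjusted by TMM scaling. Between 24140980 and 50464366 reads per library fell in genes. Ddx3y, a Y-linked gene, was at 93.7 CPM or more in every library labelled male and at 0.0360 CPM or less in every library labelled female. These Ddx3y values were computed without TMM scaling. The share of reads outside genes was higher at 18 months (10.4% ± 2.13, SD, n = 6) than at 2 months (5.06% ± 0.971), and its part in the age differences was examined by adding it to the model.

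Lypd1 (ENSMUSG00000026344.9) lies on the minus strand of chromosome 1 (GRCm38, chr1:125867622-125913101), with 5 annotated transcripts and 7038 exonic bases. Its last exon overlaps the last exon of Gpr39, which codes for a receptor responsive to zinc and lies on the opposite, plus strand (chr1:125676995-125873862). The shared stretch, chr1:125872370-125873571, is 1202 bases long, or 17.1% of all Lypd1 exonic bases. It holds 233 coding bases of Lypd1 and 969 of its 3′ UTR, and 512 coding bases of Gpr39 and 690 of its 3′ UTR. It makes up 83.1% of the 1447 bases of transcript Lypd1-201 and 79.5% of the 1511 bases of Lypd1-205, but 18.6% of the 6464 bases of Lypd1-202, whose 3′ UTR is longer. The end of the Lypd1 coding sequence lies inside the stretch, and its last 30 bases are shown because reads over them cannot be assigned without strand (chr1:125873336-125873365, minus strand, transcript Lypd1-201, stop codon in capitals).
Lypd1-201 coding end: cacttagccctctgcttggcacactgcTGA

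**Figure D1:**
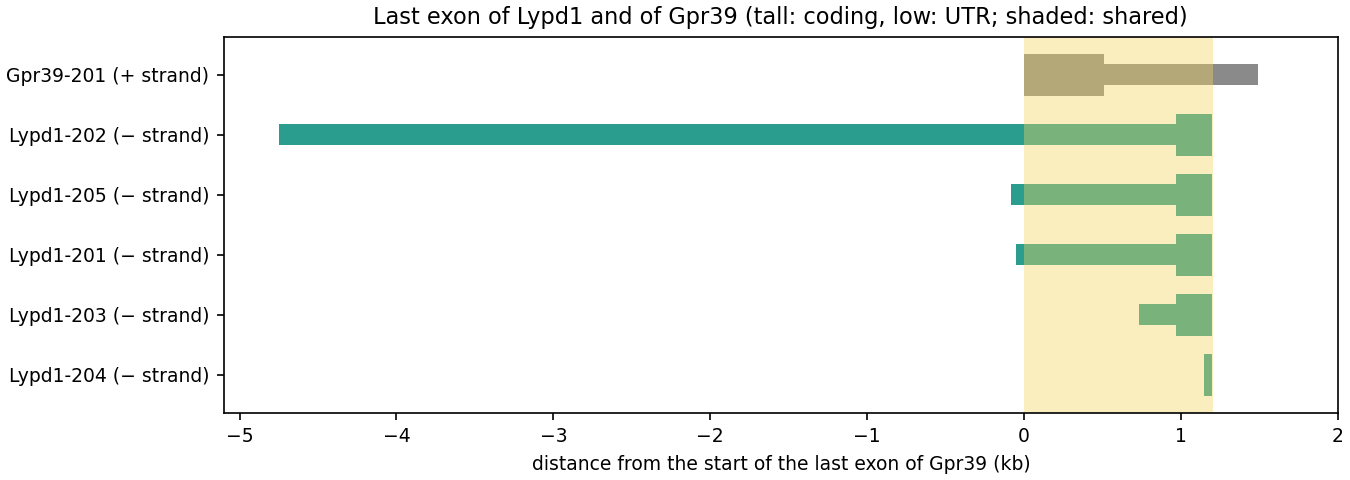
The last exons of Gpr39 and of the 5 Lypd1 transcripts, drawn to scale by their distance in kb from the start of the last Gpr39 exon. Tall boxes are coding, low boxes are untranslated, and the shaded stretch of 1202 bases is where the exons of both genes overlap, which holds nearly all of the last exon of Lypd1-201 and Lypd1-205.

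The 3 RefSeq starts of Lypd1 matched the first bases of Lypd1-201, Lypd1-202 and Lypd1-205. No promoter of Ric3 was in the RefSeq set, so none is shown. The promoter of Lypd1-201, the outermost of the 3, is shown with the searched motifs in capitals (RefSeq, GRCm38.p6, chr1:125912879-125913178, minus strand, 250 bases before to 50 after the start).
Lypd1-201 promoter: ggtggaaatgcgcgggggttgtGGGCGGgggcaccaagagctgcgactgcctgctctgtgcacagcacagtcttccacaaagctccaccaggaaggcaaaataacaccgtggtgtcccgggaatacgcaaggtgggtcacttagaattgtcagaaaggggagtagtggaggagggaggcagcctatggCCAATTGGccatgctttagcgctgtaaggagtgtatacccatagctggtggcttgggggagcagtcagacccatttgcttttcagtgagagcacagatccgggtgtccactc
Motifs were searched on both strands in this window and in 32544 promoters of the same length. The box GGGCGG was present 1 time, and 35.9% of all promoters held it. The box CCAAT was present on each strand, as a pair of matches that overlap by 2 bases, and 37.4% of all promoters held it. The box TATAAA, held by 13.6% of promoters, was in none of the 3 Lypd1 windows. The E-box CACGTG (7.17% of promoters) was found in the Lypd1-202 window and in neither of the others. The ETS-type motif CCGGAAG (8.91% of promoters) was found in the Lypd1-205 window and in neither of the others. The 3 windows held 9, 12 and 17 CpG sites, against a median of 7. These matches describe letters, not bound sites. Ric3 (ENSMUSG00000048330.14) lies on the minus strand of chromosome 7 (GRCm38, chr7:109034312-109083331), with 6 transcripts and 8561 exonic bases. Its 3′ end overlaps that of Tub on the plus strand by 149 bases, all in the UTR of both.

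Reads of Lypd1 alone gave 5.35 to 9.37 CPM at 2 months, with a median of 6.66. At 6 months the 6 libraries lay between 19.3 and 29.9 CPM (median 23.4). At 12 months they lay between 24.4 and 40.5 CPM (median 30.05). Every library of 6 months and older was thus above every 2-month library. The 18-month libraries lay between 20.5 and 30.1 CPM (median 23.2), and the 24-month libraries between 27.3 and 47.4 CPM (median 39.3). The 4 older ages overlapped each other, and no 18-month library exceeded the highest 12-month library.

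The mean level of Lypd1 reads was 6.83 ± 1.39 CPM at 2 months, 23.6 ± 3.73 at 6, 30.4 ± 5.63 at 12, 24.1 ± 3.83 at 18 and 39.3 ± 7.77 at 24 months (SD, n = 6 each). Relative to 2 months the mean was 3.45-fold higher at 6 months and 5.76-fold higher at 24 months. Most of the difference between the youngest and the oldest libraries was therefore already present at 6 months on the log scale. The fitted log2 change from 2 months was 1.78 ± 0.15 (SE) at 6 months, 2.15 ± 0.16 at 12, 1.82 ± 0.15 at 18 and 2.52 ± 0.16 at 24 months. A straight line through all ages gave a log2 change of 1.67 ± 0.31 over the 22 months from 2 to 24. Without the 2-month libraries the slope was 0.68 ± 0.21, so the line rests largely on the step after 2 months. As background, 10.9% of the 16844 genes passed the slope test (edgeR quasi-likelihood test, adjusted p under 0.05), 5.72% as rises and 5.22% as falls. In 3.74% of genes all 24-month libraries were above all 2-month libraries.

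The Lypd1 values above leave out the reads in the stretch shared with Gpr39, which the strand-blind count sets aside as ambiguous. The deposited counts by strand hold these reads, and the sum of both strands gave 536 to 6964 of them per library, the same number from the Lypd1 and from the Gpr39 side. They were 73.0 to 79.2% of all Lypd1 reads, with a mean of 76.9% at 2 months and 75.8% at 24 months. Gpr39 outside the stretch had between 0 and 12 reads per library, with a median of 0, over its other 1813 exonic bases. The highest of these counts, 12, came from a 24-month male library with 2289 Lypd1 reads outside the stretch. The library kit does not keep strand, so the origin of each shared read cannot be told apart.

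Levels in the shared stretch were lowest at 2 months, as they were for the rest of the gene. They lay between 18.9 and 27.9 CPM at 2 months (median 22.6), 62.1 and 103.9 at 6 months (median 76.1), and 92.4 and 151.6 at 24 months (median 128.7). The means were 22.7 ± 3.08, 79.2 ± 16.4, 93.2 ± 15.1, 77.7 ± 9.96 and 123.5 ± 25.3 CPM from the youngest to the oldest age. With shared and unshared reads together, Lypd1 was at 29.5 ± 4.35 CPM at 2 months and 162.8 ± 32.7 CPM at 24 months, a 5.52-fold difference. In that sum no 24-month library overlapped the 18-month libraries (86.8 to 119.5 CPM against 119.6 to 199.0), although the gap was narrow. The direction was thus the same in both portions of the gene.

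Per kb of exon the shared stretch was at 18.8 ± 2.56 CPM at 2 months and 102.7 ± 21.1 CPM at 24 months. The other exonic bases of Lypd1 were at 1.17 ± 0.238 and 6.74 ± 1.33 CPM per kb at these ages. Read density was thus concentrated in the stretch at the youngest and the oldest age. Most of the other exonic bases belong to the long 3′ UTR of Lypd1-202.

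**Figure D2:**
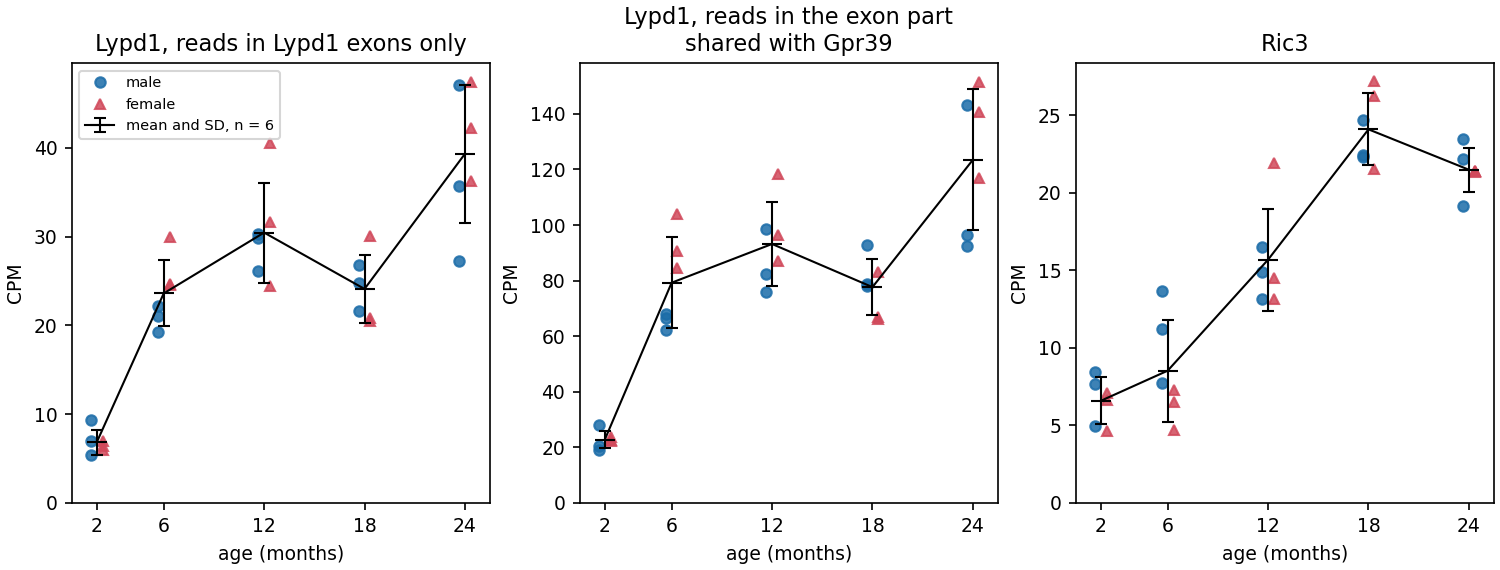
CPM by age in months for Lypd1 reads outside and inside the stretch shared with Gpr39 and for Ric3. Points are libraries (circles male, triangles female), and lines and bars give the mean and SD of 6 libraries. Lypd1 is low at 2 months alone, while Ric3 is low at 2 and 6 months and highest at 18 months.

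Ric3 took a different course through the ages. At 2 months its libraries lay between 4.66 and 8.46 CPM (median 6.88), and at 6 months between 4.72 and 13.7 CPM (median 7.51). These ages overlapped, with 2 of the 6-month libraries above all 2-month libraries. At 12 months the range was 13.1 to 21.9 CPM (median 14.7), which cleared the 2-month range and overlapped that at 6 months. At 18 months it was 21.6 to 27.2 CPM (median 23.6), and at 24 months 19.1 to 23.5 CPM (median 21.4). Every 18- and 24-month library was above every 2- and 6-month library, whereas 12, 18 and 24 months overlapped each other.

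The means of Ric3 were 6.58 ± 1.51, 8.53 ± 3.30, 15.7 ± 3.30, 24.1 ± 2.33 and 21.5 ± 1.42 CPM (SD, n = 6) from 2 to 24 months. Against 2 months this was 1.30-fold at 6 months, 2.38-fold at 12, 3.66-fold at 18 and 3.27-fold at 24 months. The fitted log2 changes were 0.36 ± 0.19 (SE), 1.26 ± 0.19, 1.88 ± 0.19 and 1.71 ± 0.19. The straight line gave 1.96 ± 0.21 over 22 months, and 1.61 ± 0.23 with the share of reads outside genes in the model. That share was likewise highest at 18 months, the age with the highest Ric3 mean. Reads shared with Tub were 0.746 to 5.92% of Ric3 reads per library.

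The levels of the 2 genes can be compared only per length. Counted outside its shared stretch, Lypd1 was at 1.17 CPM per kb at 2 months and Ric3 at 0.769 ± 0.176, and at 24 months the values were 6.74 and 2.51 ± 0.166. With all its reads over all its exonic bases Lypd1 was at 4.19 ± 0.618 and 23.1 ± 4.65 CPM per kb. In bulk samples, fewer cells with a transcript and less RNA per cell cannot be told apart, so these levels may belong to all cells or to some.

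Sex was not part of the choice of the genes and was tested over all ages. The fitted female minus male difference (log2) of Lypd1 was 0.11 ± 0.09 (SE; adjusted p = 0.866, edgeR quasi-likelihood test), and that of Ric3 was -0.14 ± 0.12 (adjusted p = 0.847). Neither passed, beside 17 genes (0.101%) that did, 0.0594% higher in females and 0.0416% in males. The difference in slope between females and males over 22 months was -0.03 ± 0.63 for Lypd1 (adjusted p = 0.998) and 0.55 ± 0.42 for Ric3 (adjusted p = 0.884, edgeR). No gene of 16844 (0%) passed that test with edgeR, nor with DESeq2. At an unadjusted p under 0.05, 916 genes passed with edgeR. The wide SE of the 2 members leaves sizeable differences undetected.

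At 6 months the sexes did not overlap in either gene, in opposite directions. Lypd1 was at 20.8 ± 1.45 CPM in 3 males and 26.4 ± 3.08 in 3 females, while Ric3 was at 10.9 ± 3.00 CPM in males and 6.19 ± 1.33 in females. Such a separation at 6 months was seen in 29.4% of the genes, against 8.58% at 2, 9.75% at 12, 21.8% at 18 and 12.6% at 24 months, so it was common at that age. The 3 female libraries of 6 months also had the lowest mean share of reads in long genes (45.9% ± 1.67, against 54.4% ± 2.92 over the other 27 libraries), whose part in the difference was not tested. At 2, 12, 18 and 24 months the sexes overlapped in both genes. In the sample labels, males and females share a code stem (a number and a letter) at 2 months only. No stem is shared between ages. The labels do not say what the codes mean, so sex at the older ages, and age, cannot be told apart from code.

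Both genes were higher at old age, but no shared deviation was detected among libraries of the same age and sex. After the mean of each age and sex was removed, the deviations of log2 CPM gave Pearson's r = -0.046 (permutation p = 0.809) and Spearman's rho = -0.072 (permutation p = 0.703, both two-sided, 30 libraries). Without the 2 libraries farthest from the median of Lypd1, r was -0.11 (permutation p = 0.592). The 2 libraries were picked anew in each setting, so the pair could differ, and the trimmed value moved. It was -0.34 (permutation p = 0.0785) with RLE scaling and -0.33 (permutation p = 0.0898) with a prior count of 0.5. With the first 2-month female library left out before the pair was picked, it was -0.41 (permutation p = 0.0315). The p-values are not adjusted, although deviations of each member were also ranked against 13087 genes, which is given as a description without a p. The shuffling ran across all 30 libraries, although deviations from group means hold 20 degrees of freedom, so the p-values may be too small. The spread within groups was 0.26 for Lypd1 and 0.28 for Ric3 (pooled SD of log2 CPM).

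**Figure D3:**
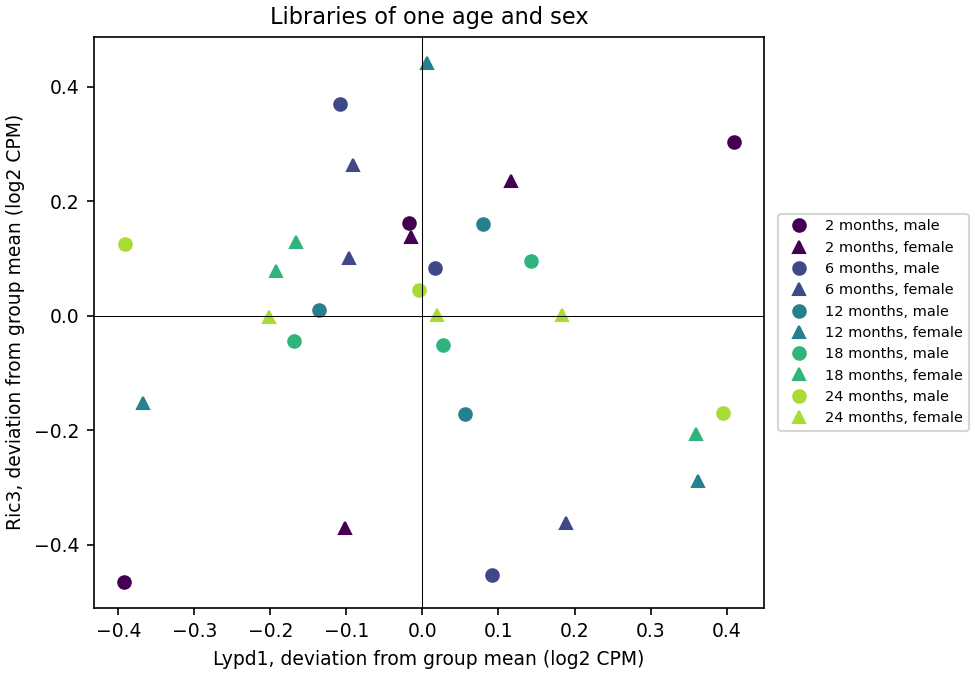
Deviations of Lypd1 (horizontal) and Ric3 (vertical) from the mean of their age and sex, in log2 CPM, for 30 libraries. Colours are ages and symbols are sexes; the points scatter around 0 with r = -0.046.

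Across all 30 libraries, ages included, the log2 CPM of Lypd1 and Ric3 correlated with r = 0.66. This value ranks Ric3 144th among 13087 genes of at least 1 CPM ordered by likeness to Lypd1, and is a description that the choice of genes with a rise already favours. Most like Lypd1 were Stmn2 (r = 0.91), a tubulin-binding protein known from neurons, BC107364 (0.91), Gm43534 (0.89), Cystm1 (0.89) and Flot2 (0.88), a membrane raft protein. Stmn2 was at 30.9 CPM at 2 months and 130.1 at 24 months, and BC107364 at 0.303 and 7.86 CPM. Among the genes most like Ric3 were Cp (r = 0.90), which codes for ceruloplasmin, Akap11 (0.89), an anchor of protein kinase A, Tmem8 (0.89) and Vwf (0.88), which codes for von Willebrand factor. Cp was at 216.7 CPM at 2 months and 377.8 at 24 months, and Vwf at 170.8 and 311.7 CPM.

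Within groups of one age and sex the nearest genes were others. Deviations of Lypd1 went best with those of Rbm22 (r = 0.69), Bcam (0.69) and Prkaca (0.66), the catalytic subunit of protein kinase A. Deviations of Ric3 went best with those of Fgd1 (0.76), Cenpc1 (0.75) and Fbrsl1 (0.73). None of these 6 genes was among the 5 most like either member over all ages. All such r values share the same 30 libraries, their depth and their composition. Picking the highest among 13087 genes favours large r, and these values were not tested.

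Transcripts for subunits of the receptors on which both proteins act were mostly scarce in these libraries, and protein was not measured. Of 16 nicotinic subunit genes, 15 had a mean under 1 CPM by unshared reads, and Chrna6 and Chrnb3 had no read in any library. Chrnb2 is counted among the 15, but 98.6% of its reads lay in stretches shared with another gene and were left out. Its level is therefore not known. Chrna7, the subunit of the homomeric receptor, had a mean of 0.0905 CPM and no read in 21 of 30 libraries. The 2 genes of the 5-HT3 receptor were as low, Htr3a at a mean of 0.0505 CPM and Htr3b with no read. A count of 0 allows up to 3 reads, or 0.0616 to 0.125 CPM depending on the library.

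The subunit gene with a mean above 1 CPM by unshared reads was Chrnb1, the beta subunit of the receptor of muscle, at 39.0 CPM. Chrnb1 lay between 23.7 and 34.3 CPM at 2 months (median 29.8) and between 36.8 and 47.6 CPM at 24 months (median 44.9), without overlap. It rose by 0.51 ± 0.13 (log2 over 22 months, SE; adjusted p = 0.00782, edgeR quasi-likelihood test). Without the 2-month libraries the slope was 0.24 (adjusted p = 0.365, edgeR). The partners of Chrnb1 in muscle, Chrna1, Chrnd, Chrne and Chrng, had means of 0.0229 CPM or less.

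The other 3 subunits kept by the filter did not pass the test. Chrna4 had a mean of 0.260 CPM and a fitted change of 0.46 ± 1.37 (adjusted p = 0.869, edgeR), and Chrnb4 had 0.337 CPM and 0.24 ± 1.51 (adjusted p = 0.942, edgeR). Chrnb2 had 0.273 CPM and 1.07 ± 0.77 (adjusted p = 0.393, edgeR), with 98.6% of its reads in stretches shared with another gene and left out. The SEs are too wide to tell a change from none.

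Over all lists of nicotinic, cholinergic and Ly6/uPAR genes, 72 genes besides the 2 members, 41 were tested, 3 rose and 1 fell (edgeR). These are 7.32% rising and 2.44% falling, beside 5.72% and 5.22% of all genes, and the median log2 change was -0.08 against 0.03 over all genes tested. The rising share lies near that of all genes, as far as 41 genes can tell. With the share of reads outside genes in the model 0 rose and 0 fell, and without the 2-month libraries 0 rose and 2 fell.

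Among 9 Ly6 proteins linked to nicotinic receptors, 5 were tested and 1 rose. Lynx1, the closest known functional relative of Lypd1, lay between 17.2 and 26.8 CPM at 2 months (median 22.4) and between 35.9 and 40.1 CPM at 24 months (median 36.9). It rose by 0.50 ± 0.13 (adjusted p = 0.0128, edgeR), yet its means of 32.9 CPM at 6 months and 24.1 at 12 months show no steady course. Without the 2-month libraries the slope was 0.27 (adjusted p = 0.357, edgeR). Ly6e was by far the most abundant at a mean of 3545 CPM and had a fitted change of -0.12 ± 0.16 (adjusted p = 0.663, edgeR). Ly6h, Lypd6 and Lypd6b had means of 0.302, 1.54 and 0.752 CPM, with adjusted p-values of 0.268, 0.969 and 0.853 (edgeR). Of 19 further Ly6/uPAR genes, 14 were tested and none passed with edgeR, 2 at an unadjusted p under 0.05. DESeq2 called 1 of them as rising and 1 as falling. Members of this family with near-identical copies lose reads that align at several places, so their levels are uncertain.

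Other factors of receptor assembly were tested, while Ric3 itself carries no test of age. Of 13 genes for assembly and clustering, all tested, 1 fell and none rose, with edgeR as with DESeq2. Over all genes 5.22% fell and 5.72% rose (edgeR), and 13 genes are too few to differ from these shares. At an unadjusted p under 0.05, 3 fell and 0 rose (edgeR). The one that fell was Ywhah, a 14-3-3 protein that assists receptor trafficking. It lay between 160.2 and 247.9 CPM at 2 months (median 218.5) and between 150.3 and 178.8 CPM at 24 months (median 164.2), with overlap, and fell by 0.45 on the log2 scale (SE 0.12, adjusted p = 0.0128, edgeR). Without the 18-month libraries it fell by 0.38 (adjusted p = 0.0544, edgeR), and with the share of reads outside genes in the model by 0.33 (adjusted p = 0.288, edgeR). Tmem35a, also called NACHO, which assembles alpha-7 receptors together with Ric3, was at 0.984 ± 0.829 CPM at 2 months and 0.228 ± 0.165 at 24 months, a fitted change of -1.82 ± 0.95 that did not pass (adjusted p = 0.224, edgeR).

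Acetylcholine itself was represented by its breakdown rather than its synthesis. Chat, which makes acetylcholine, had 1 library with any read among 30. Bche, which codes for butyrylcholinesterase, was at a mean of 89.2 CPM with a fitted change of 0.03 ± 0.18 (adjusted p = 0.937, edgeR). Ache, which codes for acetylcholinesterase, lay between 0.439 and 1.04 CPM at 2 months (median 0.921) and between 1.83 and 3.77 CPM at 24 months (median 2.80), without overlap. It rose by 1.73 ± 0.47 (adjusted p = 0.0163, edgeR). Of the 2 muscarinic receptor genes tested, none passed with edgeR or DESeq2, nor at an unadjusted p under 0.05.

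**Figure D4:**
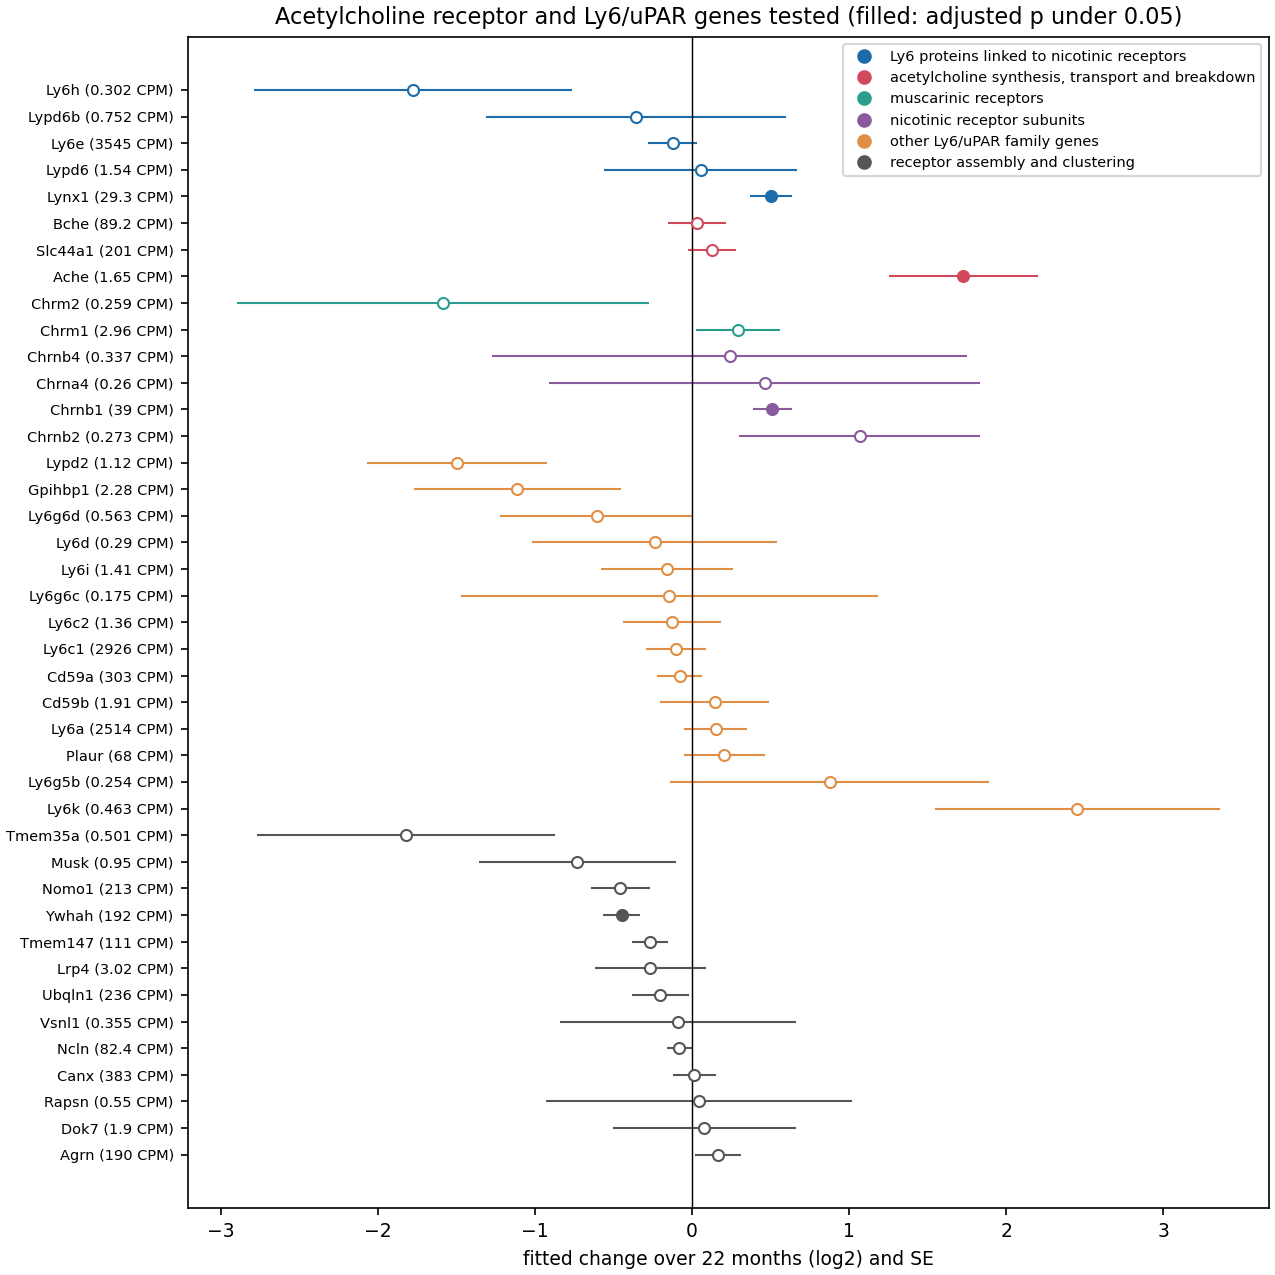
Fitted change over 22 months (log2, horizontal) with its SE for the 41 tested genes of the lists, coloured by list, with the mean CPM beside each name. Filled points passed at an adjusted p under 0.05, and these are Chrnb1, Lynx1 and Ache on the rising side and Ywhah on the falling side.

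Neighbours on the chromosome were read for whether a rise was limited to the members. Nckap5 lies 518 bases upstream of Lypd1 on the same strand. It had a mean of 2.60 CPM at 2 months and 5.97 at 24 months, and rose by 1.40 ± 0.38 (adjusted p = 0.0142, edgeR). Slc35f5, on the other side of Gpr39, was at 114.2 and 103.8 CPM, with a fitted change of -0.18 ± 0.09 (adjusted p = 0.208, edgeR). Tub, which meets Ric3 end to end, was at 1.27 CPM at 2 months and 3.75 at 24 months, and rose by 2.11 ± 0.53 (adjusted p = 0.00922, edgeR). Lmo1, 55240 bases upstream of Ric3, was at 4.19 and 4.62 CPM, with a fitted change of -0.27 ± 0.29 (adjusted p = 0.594, edgeR). At each locus 1 tested neighbour rose and 1 did not pass, beside 5.72% of all genes that rose. So few neighbours cannot be compared with that share. Both that rose were low, Nckap5 at a mean of 4.71 CPM and Tub at 2.75 CPM, with 1 to 399 Tub reads per library.

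The rises of Ache, Nckap5 and Tub each missed the threshold without the 2-month libraries, with slopes of 1.83, 1.18 and 2.30 (adjusted p = 0.0920, 0.160 and 0.0670, edgeR). They also missed it without the 18-month libraries, with slopes of 1.65, 1.23 and 1.70 (adjusted p = 0.0692, 0.0816 and 0.0787, edgeR). The slopes kept their direction and most of their size in these smaller sets of libraries.

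Because both proteins are known from neurons, neuronal markers were set beside them. The 10 markers summed to between 4.40 and 15.6 CPM per library, with medians of 7.45, 8.44, 6.71, 6.25 and 6.96 CPM from 2 to 24 months, and none was without reads in all libraries. Of the 9 tested, none rose or fell with edgeR or DESeq2, nor at an unadjusted p under 0.05 (0 genes). Stmn2, known from neurons and most like Lypd1 in these libraries, is not among the 10. Among markers of other cells, 3 of 6 pericyte genes rose, and 4 of 6 choroid plexus and ependyma genes and 2 of 6 astrocyte genes fell, beside 5.72% rising and 5.22% falling over all genes. The pericyte sum had medians of 606.9 CPM at 2 months and 783.6 at 24 months, the choroid plexus sum 2982 and 1229 CPM, and the astrocyte sum 548.3 and 357.0 CPM. No gene passed among markers of oligodendrocytes, their precursors, smooth muscle, fibroblasts or microglia. In this order, their summed medians at these ages were 167.4 and 344.3, 22.9 and 27.3, 183.1 and 283.9, 335.2 and 388.5, and 256.0 and 258.2 CPM. The ranges of the sums at these ages overlapped in each of these lists. The 10 endothelial markers held 1 rise and 1 fall (edgeR), with summed medians of 19816 CPM at 2 months and 17614 at 24 months. The gene that fell was Cldn5, by 0.59 on the log2 scale (adjusted p = 0.00463, edgeR). Of endothelial subtype markers, 2 of 6 capillary genes fell, with summed medians of 7735 and 5405 CPM. Of 6 venous genes 2 rose and 1 fell, with summed medians of 1096 and 783.3 CPM. Of 6 arterial genes 1 rose, with summed medians of 436.2 and 483.0 CPM. The part of these shifts in the levels of Lypd1 and Ric3 was not tested.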

How the data were processed

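The members and gene lists were chosen with earlier results of these data known. Per the labels' protocols, a low-input SMART-Seq v4 kit made the cDNA, Nextera XT made the libraries, and 24 were read from both ends and 6 from 1 end on another instrument. The labels do not say which, so instrument entered no model. Any overlap of instrument with an age or a sex is therefore not known, and each age also has 6 libraries. Per the submitters' processing notes, the tools were STAR 2.5.2b, HTSeq, FastQC 0.11.4 and MultiQC, and the builds GRCm38 and mm10. The authors deposited whole-number counts per gene, not normalized, with 1 strand-blind column and 2 columns by strand. The forward column held 49.7 to 50.0% of stranded reads. Excluded were 4 lines without a gene name, which held 2.51 to 6.26% unmapped, 8.64 to 13.3% multimapping, 3.82 to 13.1% outside-gene and 3.61 to 4.21% ambiguous reads. GENCODE M21 matched 48349 of 48795 identifiers.

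Strand-blind counts went into edgeR 4.0.16 under R 4.3.3: filterByExpr by age (minimum count 10), TMM scaling, robust quasi-likelihood fits to all 30 libraries, and Benjamini-Hochberg adjustment over 16844 genes at 0.05. Age slopes had sex as a covariate and sex tests had age as a factor. CPM uses TMM-scaled sizes except for Ddx3y, and log2 CPM a prior count of 2. Library pairs of one age differed by 14.9 to 180.6 times sampling noise (chi-square per degree of freedom), more than sampling alone gives. This cannot tell separate mice from separate preparations of the same cells. In simulated counts with 200 genes of all levels changed by known slopes of 1 and 2 (log2), 62.6 and 78.6% were recovered. In the data 1843 genes passed and many listed genes were scarce, so these rates need not hold for them. Long genes are those with exons longer than the median of kept genes.

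Genes named were the members, pathway genes that passed the slope test, kept nicotinic subunits and receptor-linked Ly6 genes, and Tmem35a, Ache, Bche, Chat and Htr3a. Also named were overlapping and nearest kept neighbours, and for each member the 5 genes most like it over all libraries and the 3 most like it in deviations (mean of at least 1 CPM). Of these, 1 is not reported here. Other subunits and Htr3b are named as parts of counts, chosen after their values were seen. Permutation tests used 100000 resamples. Alternatives were upper-quartile and RLE scaling, DESeq2 1.42.0, no filter, reads outside genes as a covariate, and leaving out the 2-month, the 18-month or each single library. For the correlation they were RLE scaling, a prior count of 0.5, regression on reads outside genes and each single library. The sum of both strand columns was added after seeing the data.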

Additional observations from a re-analysis of the deposited data

Results flagged for a closer look

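Among 45 groups of 6 libraries looked at, 1 was flagged for a single library far from the others, and chance flags about 1 in 20 groups. In Ache at 2 months, the library of the third male had 0.439 CPM, below the other 5 at 0.850 to 1.04 CPM. No such library was found for Lypd1 or Ric3 at any age.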

How the results depend on the processing

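The slope of Lypd1 over 22 months (log2) was 1.96 with reads outside genes as a covariate and 0.68 without the 2-month libraries, and that of Ric3 was 1.61 with the covariate; both stayed positive under every alternative run. Leaving out single libraries gave 1.52 to 1.76 for Lypd1 and 1.88 to 2.05 for Ric3. The sex by age difference of Lypd1, -0.03 in the analysis of all libraries, was 0.27 with the covariate and -0.30 to 0.21 when single libraries were left out, turning sign in 10 of 30 cases, far inside its SE. The correlation of deviations ranged from -0.29 to 0.070 over the same omissions, with 5 positive values, and was -0.14 when strand columns were summed. Among list genes, 0 rose and 0 fell with the covariate, 0 rose and 2 fell without 2 months, and 1 rose and 0 fell without 18 months. DESeq2 gave 2 falling genes and no filter gave 3. Over all genes, 264 rose and 138 fell with the covariate, 331 rose without 2 months, and 399 rose and 327 fell without 18 months, beside 964 and 879. With the covariate Bche was at -0.10, Lmo1 at 0.0068, Ly6e at 0.21 and Lypd6 at -0.15, and Bche at -0.013 without 18 months, all turned in sign and none called. Leaving out single libraries gave -0.036 to 0.092 for Bche, -0.086 to 1.495 for Chrna4, -0.75 to 0.79 for Chrnb4 and -0.18 to 0.30 for Lypd6. The calls of Chrnb1, Lynx1, Ache, Ywhah, Nckap5 and Tub missed the threshold with the covariate, at slopes of 0.42, 0.51, 1.59, -0.33, 1.05 and 1.81 (edgeR adjusted p = 0.157, 0.0845, 0.144, 0.288, 0.214 and 0.118). The cause was not tested. No paired analysis was possible because the labels give codes of unstated meaning and no replicate numbers shared between groups. Replicate numbers were given in accession order. Genes under about 1 CPM rest on few reads and had wide SEs; the run with no filter called Chrm4 and Htr3a, which are among them.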
